A study of Homo sapiens and Mus musculus with 13 samples.

Results

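Matrix metalloproteases (MMPs), ADAM and ADAMTS proteases, ADAMTS-like proteins and the tissue inhibitors of metalloproteases (TIMPs) were described in a mouse haematopoietic progenitor line with and without a knock-in of NPM1c, the cytoplasmic mutant of nucleophosmin found in acute myeloid leukaemia. Members were chosen by symbol alone, and 83 of the 37991 genes in the files matched: 23 MMPs, 32 ADAMs, 19 ADAMTS proteases, 5 ADAMTS-like proteins and 4 TIMPs. The cells are progenitors immortalised by HOXB8 and kept in a medium with stem cell factor and beta-estradiol, conditions that both groups share. The knock-in group holds 3 libraries, 1 from each of the single-cell clones titled 12, 18 and 4, which carry NPM1c joined to GFP, introduced by CRISPR/Cas9. The control group holds 2 libraries of the wild-type parental line, and separate cultures are stated for neither of these, and their spread may be only technical. The column headings number the clones differently from the titles, which leaves the groups as they are but makes the number of a single clone uncertain. Clones are named here by title.

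These families share a zinc-dependent catalytic domain. MMPs are made as latent enzymes, some secreted and some anchored in the membrane, and they cut collagens, laminins, growth factors and other matrix-bound proteins. ADAMs are mostly membrane proteins that release the outer part of receptors, ligands and adhesion molecules from the cell surface, while ADAMTS proteases are secreted and process matrix proteins. ADAMTS-like proteins resemble ADAMTS proteases but lack the catalytic domain, and TIMPs bind and block the active enzymes. In blood cells, Mmp8, Mmp9 and Mmp25 are known from neutrophils, Mmp12 from macrophages, and Adam10 and Adam17 as the main sheddases of leukocytes.

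The deposited values are read counts divided by a size factor for each library, called normalised read counts below. They are not corrected for gene length, so levels are compared between libraries and not between genes. The libraries held 7358340 to 12235174 reads, except parental replicate 2 with 99557475, so a gene with few reads is measured most precisely there and 1 read is worth 0.153 there against 1.23 to 2.05 elsewhere. Npm1, the targeted gene, was at 15141, 14144 and 14305 in the clones, compared with 25695 and 25714 in the parental libraries, although the table does not separate mutant from normal transcripts. Kit, the stem cell factor receptor and a marker of progenitors, lay between 5887 and 8571 in the clones and between 5263 and 5736 in the parental libraries. Bulk libraries do not tell fewer cells with a transcript from less transcript in each cell.

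Of the 83 members, 44 had a read in at least 1 library and 23 reached a mean of 10 over the 5 libraries, the minimum for testing. These 23 comprised 9 MMPs, 8 ADAMs, 4 ADAMTS proteases, 2 ADAMTS-like proteins and no TIMP. The mean was at least 10 in both groups for 18 of them. Adam3, Mmp27 and Adamts7 reached it in the clones only, and Mmp14 and Adamts3 in the parental libraries only. Clones and parental libraries were compared with limma on log2(value + 1) over all 13132 genes with a mean of at least 10, and a gene was called at a Benjamini-Hochberg adjusted p under 0.05. In this fit 4 members were called higher and 4 lower in the clones, while 15 were not called. Without clone 12 the counts were 2 and 3, without parental replicate 1 they were 2 and 2, and without parental replicate 2 they were 4 and 1. Over all genes tested, 16.0% were called, 7.51% higher and 8.49% lower. Because the 5 members that reached the minimum in only 1 group passed through the group where they were high, nothing is read from the share of members called. The median log2 fold change was -0.01 over the 23 members and 0.01 over all genes tested.

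**Figure D1:**
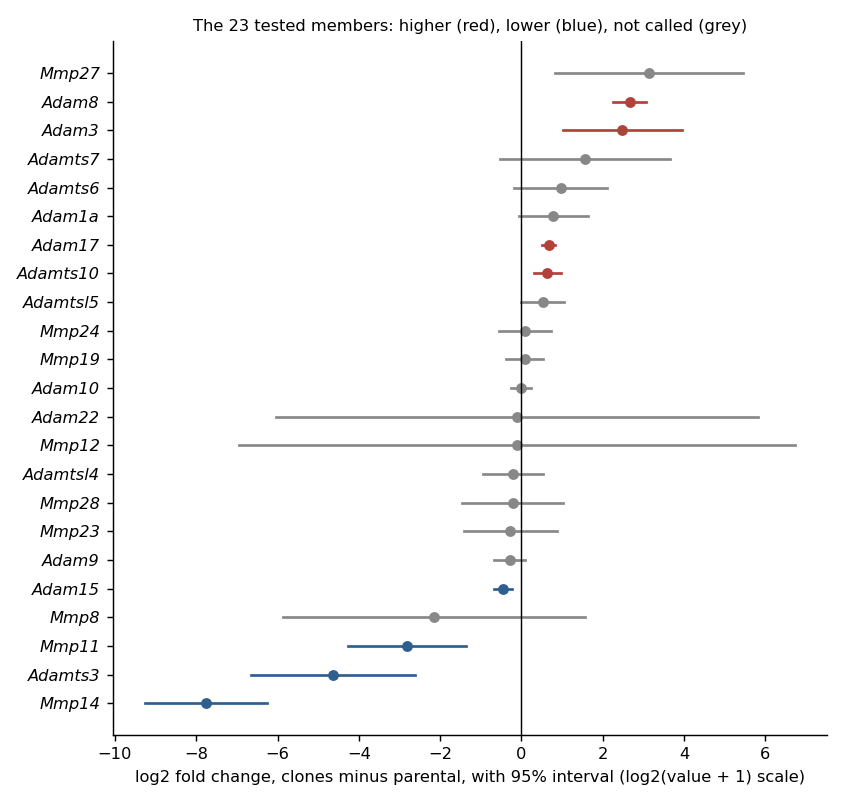
Log2 fold change (horizontal axis, clones minus parental, on the log2(value + 1) scale) of the 23 tested members, with 95% intervals from limma and with colours for called higher, called lower and not called. Mmp14 lies at -7.75 and Adam8 at 2.66, and the widest intervals are those of Mmp12 and Adam22.

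Among the ADAM sheddases, Adam8 and Adam17 rose in the clones and Adam15 fell, while no change was called for Adam10 and Adam9. Adam8 (ENSMUSG00000025473), a sheddase and adhesion protein first described in macrophages and also known from granulocytes, was at 316, 357 and 324 in clones 12, 18 and 4. In the parental libraries it was at 55.9 and 47.6, so every clone lay far above both. Its rise was 6.33-fold (log2 fold change 2.66, SE 0.171, adjusted p = 0.000209, limma).

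Adam17 (ENSMUSG00000052593), the protease that releases tumour necrosis factor, L-selectin and several growth factors, was at 11602, 12020 and 11661 in the clones, with parental values of 7279 and 7496. The libraries of each group lay close together and the groups did not overlap. It rose 1.59-fold (log2 fold change 0.67, SE 0.0699, adjusted p = 0.00118, limma). Adam8 and Adam17 remained called in all 14 alternative settings, which included leaving out each library in turn.

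Adam10 (ENSMUSG00000054693), which cleaves Notch receptors and many other surface proteins, was at 3879, 3593 and 4039 in the clones, while the parental libraries gave 4172 and 3575. The groups overlapped, and the 95% interval of its log2 fold change ran from -0.25 to 0.23 (adjusted p = 0.955, limma). Changes within these bounds are not excluded by these libraries. Whether the fold changes of Adam17 and Adam10 differ was not tested.

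Adam15 (ENSMUSG00000028041), a membrane ADAM with an integrin-binding disintegrin domain, was at 6682, 6684 and 5773 in the clones, compared with 8281 and 9201 in the parental libraries. All 3 clones were below both parental libraries. It fell by 0.46 on the log2 scale (SE 0.0975, adjusted p = 0.0191, limma). The call was lost without clone 12 (adjusted p = 0.0562) and without parental replicate 2 (0.119, limma). Adam9, a widely expressed relative, was at 297, 315 and 345 in the clones, with parental values of 345 and 436, with clone 4 just below parental replicate 1, and was not called (log2 fold change -0.28, 95% interval -0.67 to 0.10, adjusted p = 0.282, limma).

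**Figure D2:**
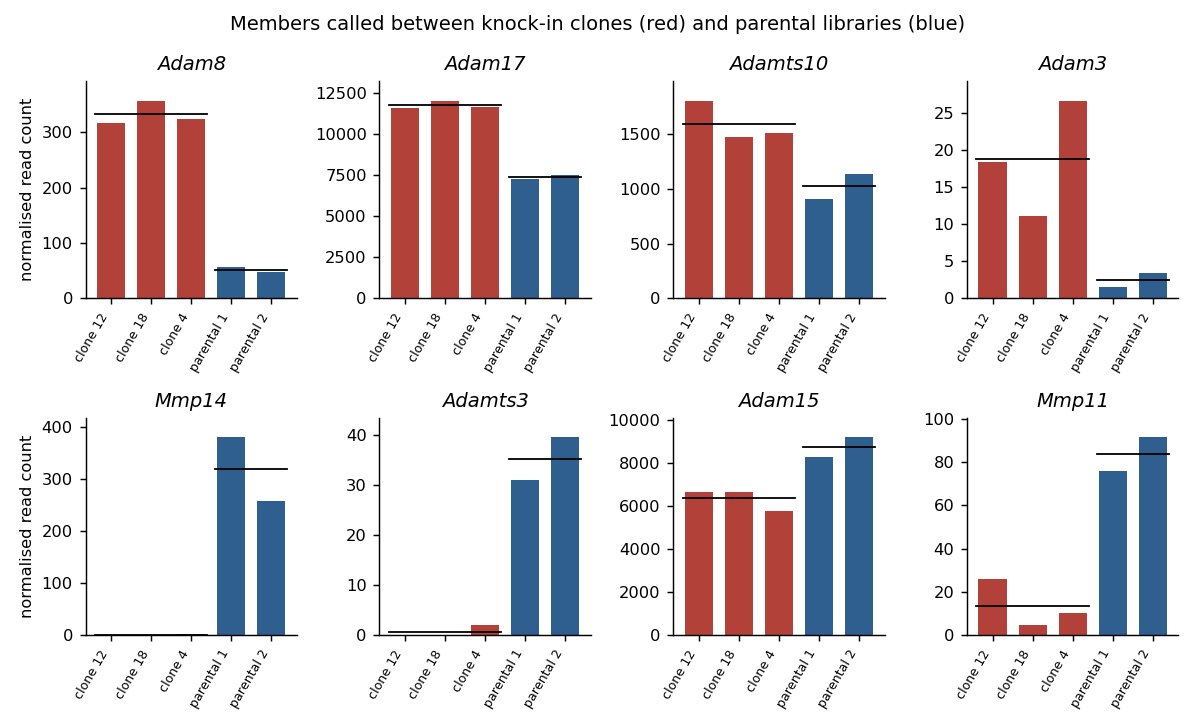
Normalised read count (vertical axes, from 0, each with its own scale) of the 8 called members in each library, with a black line at the group mean. The 4 genes of the top row are higher in all 3 clones than in both parental libraries, and the 4 of the bottom row are lower.

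The fertility ADAMs were represented at a low level. Adam3, whose protein acts on the sperm surface in mice, was at 18.5, 11.1 and 26.7 in the clones, while the parental libraries gave 1.55 and 3.36. These values rest on 35 reads in the clones and 23 in the parental libraries. It was called higher (log2 fold change 2.49, SE 0.633, adjusted p = 0.0358, limma), but not without clone 12, parental replicate 1 or parental replicate 2 (adjusted p = 0.111, 0.138 and 0.0866, limma), and without clone 4 it fell below the minimum and was not tested.

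Adam1a and Adam1b encode related forms of fertilin alpha, and reads of such close copies may be split between them. Adam1a was at 30.8, 20.6 and 32.8 in the clones, compared with 15.5 and 15.6 in the parental libraries, so the groups did not overlap, but it was not called (log2 fold change 0.79, 95% interval -0.07 to 1.64, adjusted p = 0.194, limma). Adam1b, below the minimum, ranged from 6.34 to 16.0 in the clones and from 5.34 to 7.77 in the parental libraries. Adam22, Adam23 and Adam11 belong to the branch of the family without a working protease site, known from nerve cells. Adam11 stayed between 4.76 and 12.3 in all 5 libraries, with overlapping groups, and Adam22 and Adam23 are described with the clones below. No read of 18 ADAMs was found in any library, among them Adam12, Adam19 and Adam33, which have a protease site, and Adam2, the partner of the Adam1 proteins.

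Among the MMPs, 2 of 9 tested members fell, none was called higher and 7 were not called. Over all genes tested, 7.51% were called higher and 8.49% lower. Since Mmp14 and Mmp27 reached the minimum in only 1 group, nothing is read from this count. Mmp14 (ENSMUSG00000000957), the membrane-type MMP that cuts collagen and activates latent Mmp2, had no read in clones 12 and 18 and 1 read in clone 4, against 379 and 257 in the parental libraries. The clones were thus nearly without it, where the parental libraries together gave 1926 reads. The ratio of the pooled values was 517 (95% counting interval 92.7 to 20430), and the fitted log2 fold change was -7.75 (SE 0.646, adjusted p = 0.000562, limma). Without clone 4 the remaining clones had no read, and Mmp14 stood at least 129-fold lower, taking 3 reads for the group as the floor. Its call held in all 14 alternative settings.

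Mmp2, the gelatinase that Mmp14 activates, was at 2.46, 4.76 and 2.05 in the clones, with parental values of 1.55 and 3.05, below the minimum and with overlapping groups. The other membrane-type MMPs did not share the pattern of Mmp14 in every case. Mmp24 was at 41.9, 53.9 and 67.7 in the clones, while the parental libraries gave 46.6 and 54.3, and was not called (log2 fold change 0.09, 95% interval -0.56 to 0.73, adjusted p = 0.863, limma). Mmp15, named after its values were seen, had 2 reads in the clones and 33 in the parental libraries, 28 of them in parental replicate 2. The ratio was 4.43 (95% counting interval 1.13 to 38.1), an interval that covers counting error only. With no minimum mean in the fit, Mmp15 was not called (adjusted p = 0.1325, limma). Mmp17 ranged from 3.11 to 7.93 over all libraries. Mmp16 and Mmp25 had no read.

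Mmp11 (ENSMUSG00000000901), stromelysin 3, is known from tissue remodelling and, unlike most secreted MMPs, is activated inside the cell by furin. It was at 25.9, 4.76 and 10.3 in the clones, compared with 76.1 and 91.4 in the parental libraries. The clones differed among themselves, but all 3 lay below both parental libraries. It fell by 2.81 on the log2 scale (SE 0.619, adjusted p = 0.0234, limma), a call lost without clone 4, parental replicate 1 or parental replicate 2 (adjusted p = 0.0965, 0.0722 and 0.119, limma).

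Mmp27, a little studied member that stays in the endoplasmic reticulum, was at 45.5, 11.1 and 24.6 in the clones, with parental values of 0 and 6.72. The groups did not overlap, yet it was not called (log2 fold change 3.13, 95% interval 0.82 to 5.44, adjusted p = 0.0732, limma) except without parental replicate 2 (log2 fold change 4.61, adjusted p = 0.0358, limma). Without parental replicate 1 its log2 fold change was 1.66. Mmp19, Mmp23 and Mmp28 showed overlapping groups and none was called. Mmp19, a secreted MMP found in many tissues, was at 92.3, 111 and 92.3 in the clones, while the parental libraries gave 91.7 and 94.3. Its log2 fold change was 0.08, with a 95% interval of -0.37 to 0.52 (adjusted p = 0.817, limma). Mmp28 ranged from 8.21 to 25.9 in the clones and was at 20.2 and 19.4 in the parental libraries, and Mmp23 from 8.21 to 12.3 and at 12.4 and 11.9.

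Mmp8 and Mmp12, known from neutrophils and macrophages, ranged widely among the clones. Mmp8, neutrophil collagenase, was at 36.9, 125 and 4.10 in the clones, compared with 154 and 106 in the parental libraries. Clone 18 lay between the parental libraries and clone 4 had only 2 reads, and the gene was not called (log2 fold change -2.15, 95% interval -5.87 to 1.57, adjusted p = 0.367, limma). Its log2 fold change was -0.90 without clone 4 and -3.21 without clone 18. Mmp12, macrophage elastase, was at 0, 23.8 and 404 in the clones, with parental values of 18.6 and 26.7. Clone 18 was at the parental level, clone 12 had no read and clone 4 was far above every other library. The 95% interval of its log2 fold change ran from -6.96 to 6.73 (adjusted p = 0.980, limma).

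Adam22 was at 1.23, 0 and 80.0 in the clones, while the parental libraries gave 0 and 36.0, so that it was high in clone 4 and in parental replicate 2 and near 0 in the other 3 libraries. With the lowest clone raised to the value of 1 read in clone 4, the highest clone was at least 10 times the lowest in 3 of the 23 tested members (Mmp8, Mmp12 and Adam22), a measure chosen after these values were seen. This held for 1.26% of all genes tested. Among members below the minimum, Adam23 was at 19.0 in clone 18 with no read in any other library, and Timp2 was at 20.5 in clone 4, 1.37 in parental replicate 2 and 0 in the other 3.

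**Figure D3:**
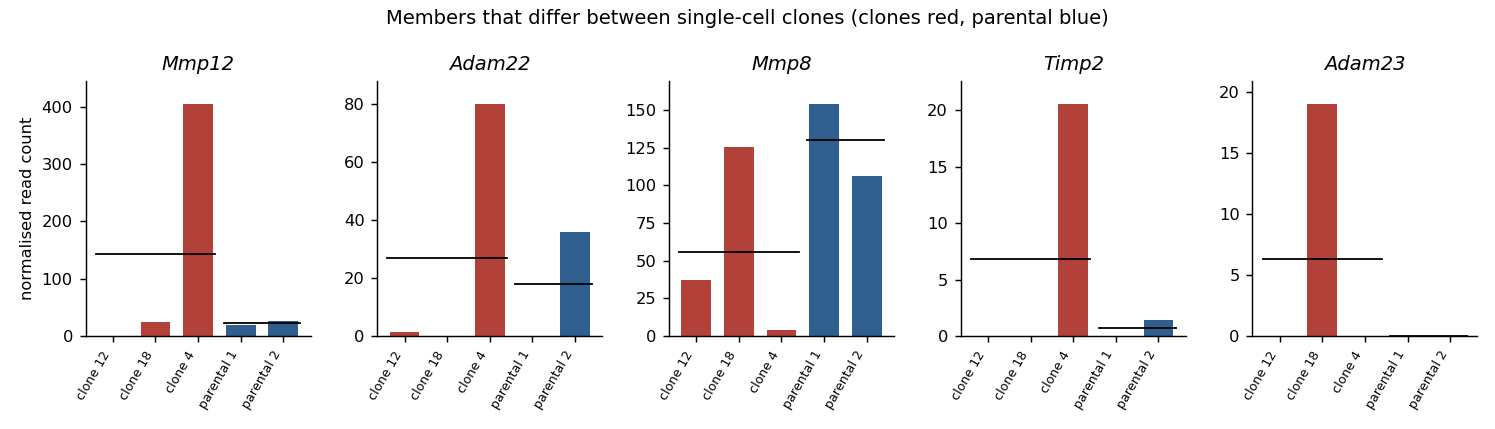
Normalised read count (vertical axes, from 0, each with its own scale) in each library of 5 members that differed between clones, with a black line at the group mean. Mmp12, Adam22 and Timp2 are highest in clone 4, at 404, 80.0 and 20.5, while Mmp8 and Adam23 are highest among clones in clone 18.

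The markers of the cell types in which these genes are known were set beside them. The 10 neutrophil granule genes summed to 18984, 27440 and 13304 in clones 12, 18 and 4 and to 53369 and 46801 in the parental libraries, with 5 of the 10 at a mean of 10 or more. Mpo gave most of the sum, at 13845, 20009 and 7872 in the clones, and with it the order of the clones seen for Mmp8. Ctsg had another order, at 1422, 1714 and 1943 in the clones and 1866 and 260 in the parental libraries, and Lcn2 was at 61.5 to 71.4 in the clones, with parental values of 43.5 and 63.2. Camp, S100a8 and S100a9 of this list stayed below 2 in all libraries, while Ngp reached 4.66 in parental replicate 1 and Ltf 2.05 in clone 4. The 13 monocyte and macrophage genes, 6 of them at a mean of 10 or more, summed to 4810, 5570 and 8906 in clones 12, 18 and 4 and to 8404 and 8964 in the parental libraries. Ccr2 gave most of this sum, at 4063, 4522 and 7673 in the clones and 7908 and 8400 in the parental libraries. Emr1 was at 532, 659 and 938 in the clones, above its parental values of 154 and 191. Ccr2, Emr1, Cd68 and Csf1r were highest among clones in clone 4, as Mmp12 was. Cd14, at 48.0, 131.6 and 26.7 in clones 12, 18 and 4, and Ly6c2, at 0, 25.4 and 0, were highest in clone 18. The macrophage genes Marco and C1qa stayed below 2 in all libraries. Of the 10 mast cell and basophil genes 6 were tested, and Mcpt4 was below 2 in all libraries. The 10 genes summed to 9483 to 12018 in the clones and to 2932 and 5357 in the parental libraries. Like Adam8, this sum was higher in the clones, as were those of the megakaryocyte list (2032 to 3143 against 384 to 437) and the endothelial list (7620 to 9336 against 3541 to 3717). Itga2b gave most of the megakaryocyte sum in the clones, at 2024, 1783 and 2675, against 196 and 223 in the parental libraries. Pf4 was higher in the clones too, while Gp9 and Vwf overlapped. Pecam1 gave most of the endothelial sum, at 7452 to 9160 in the clones and 3302 and 3493 in the parental libraries. Egfl7 was lower in the clones, at 165 to 198 against 214 and 236, and Cdh5, Tek and Emcn had no read. The neutrophil granule, erythroid, B cell and dendritic cell sums were lower in every clone than in both parental libraries. Tfrc gave most of the erythroid sum, at 4543, 4208.5 and 4811 in the clones and 5882 and 5025 in the parental libraries. Hbb-b1 went the other way, at 61.6, 25.4 and 51.3 in the clones and 0 and 0.763 in the parental libraries. Epor was also higher in the clones, at 4.92 to 10.3 against 1.53 and 1.55. Flt3 gave most of the dendritic cell sum, at 3496 to 4185 against 5446 and 5521. Itgax went the other way, at 22.2 to 67.7 against 1.55 and 3.36. The other sums overlapped between the groups. The part of these cell types in the values of Mmp8, Mmp12 and Adam8 was not tested.

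Mmp14, Mmp11 and Adamts3 are best known from connective tissue. Of the 10 stromal marker genes, Col3a1, Dcn, Lum and Pdgfra had no read in any library and 1 was at a mean of 10 or more. Their sum was 241, 68.2 and 26.7 in clones 12, 18 and 4 and 40.4 and 52.7 in the parental libraries, and Pdgfrb gave 233 of the 241 in clone 12. Col1a2 did not overlap between the groups, at 4.92, 7.93 and 0 in the clones and 15.5 and 18.02 in the parental libraries. It was lower in the clones, as Mmp14, Mmp11 and Adamts3 were. Acta2 did not overlap in the other direction, at 2.46, 4.76 and 2.05 in the clones and 0 and 1.83 in the parental libraries. Both were below the minimum for testing. Pdgfrb overlapped, at 24.6 to 233 in the clones and 24.9 and 32.2 in the parental libraries. Over all genes tested, 50.2% did not overlap. The part of stromal cells in these values was not tested.

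The secreted ADAMTS proteases were tested in 4 cases, and 1 rose, 1 fell and 2 were not called. Over all genes tested, 7.51% were called higher and 8.49% lower. Since Adamts3 and Adamts7 reached the minimum in only 1 group, nothing is read from this count. Adamts10 (ENSMUSG00000024299), which binds fibrillin microfibrils, was at 1808, 1477 and 1510 in the clones, compared with 914 and 1142 in the parental libraries. All 3 clones were above both parental libraries. It rose 1.56-fold (log2 fold change 0.64, SE 0.142, adjusted p = 0.0219, limma), a call lost without clone 12 or parental replicate 1 (adjusted p = 0.0824 and 0.0948, limma).

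Adamts3 (ENSMUSG00000043635), which processes procollagen and the lymphatic growth factor Vegfc, had no read in clones 12 and 18 and 1 read in clone 4, against 31.1 and 39.5 in the parental libraries. Like Mmp14, it was nearly missing from the clones. The ratio of the pooled values was 74.9 (95% counting interval 13.3 to 2968), and the fitted log2 fold change was -4.64 (SE 0.870, adjusted p = 0.0124, limma). Without clone 4 the bound with the same floor was 18.7-fold, and without parental replicate 1 the call was lost (adjusted p = 0.126, limma). Without parental replicate 2 it fell below the minimum and was not tested, so the call rested on having both parental libraries.

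Adamts6 and Adamts7 were not called. Adamts6, a close relative of Adamts10, was at 34.5, 17.4 and 14.4 in the clones, with parental values of 10.9 and 9.31, with no overlap (log2 fold change 0.96, 95% interval -0.19 to 2.12, adjusted p = 0.230, limma). Adamts7, known to cut cartilage oligomeric matrix protein, ranged from 4.92 to 32.8 in the clones and was at 1.55 and 7.02 in the parental libraries (adjusted p = 0.276, limma). The aggrecan-cutting members were at or near 0. Adamts4 had no read in the clones and was at 1.55 and 1.98 in the parental libraries, Adamts5 was at 1.23 and 1.59 in clones 12 and 18 and 0 elsewhere, and Adamts1 had no read. These 3 are named by function after their values were seen. With no minimum mean in the fit, Adamts4 was called lower (log2 fold change -1.465, adjusted p = 0.04815, limma). That call rests on 14 parental reads, 13 of them in parental replicate 2. The parental values of Adamts4 lie within the range that 1 read is worth in the clones.

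Of the ADAMTS-like proteins, Adamtsl5, a fibrillin-binding protein, was at 385, 243 and 265 in the clones, while the parental libraries gave 219 and 188. The groups did not overlap, and it was not called (log2 fold change 0.52, 95% interval -0.0023 to 1.04, adjusted p = 0.162, limma). Adamtsl4, which also binds fibrillin, ranged from 24.6 to 38.2 in the clones and was at 38.8 and 31.0 in the parental libraries (adjusted p = 0.694, limma). Adamtsl2 was at 1.23, 12.7 and 10.3 in the clones, compared with 7.77 and 8.70 in the parental libraries, with overlapping groups and a mean below 10.

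In all, 13 of the 23 tested members did not overlap between groups, 8 with the clones above and 5 with the clones below. Over all genes tested, 50.2% did not overlap, 24.5% with the clones above and 25.8% below, so a lack of overlap is common in these libraries. Adam1a, Adam9, Adamts6, Adamtsl5 and Mmp27 were the 5 that did not overlap and were not called.

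The TIMPs, which would hold these enzymes in check outside the cell, were barely represented. Timp1 had 1 read each in clones 12 and 18 and none elsewhere, Timp2 is given above, and Timp3 and Timp4 had no read in any library. Timp1, Timp3 and Timp4 lie inside genes of the synapsin family, and use of strand in counting is not given in the sources used here. With 3 reads as the limit that a count of 0 allows, Timp3 and Timp4 were below a normalised read count of 0.458 in parental replicate 2 and below 3.69 to 6.15 in the clones. These floors, like the counting intervals, cover counting error only.

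In the same way 39 members had no read in any library: 18 ADAMs, 8 ADAMTS proteases, 2 ADAMTS-like proteins, 9 MMPs and 2 TIMPs. Among the MMPs were Mmp3, Mmp7 and Mmp10, which act at epithelia and in stroma, and the interstitial collagenases Mmp1a and Mmp1b. Mmp9, the gelatinase of neutrophils, gave a single read in clone 18. Mmp13, collagenase 3, was below the minimum at 1.23, 7.93 and 4.10 in the clones, with parental values of 14.0 and 9.31. The clones were below both parental libraries without overlap. In the 11 members with a mean below 1, the highest number of reads in any library was 13.

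**Figure D4:**
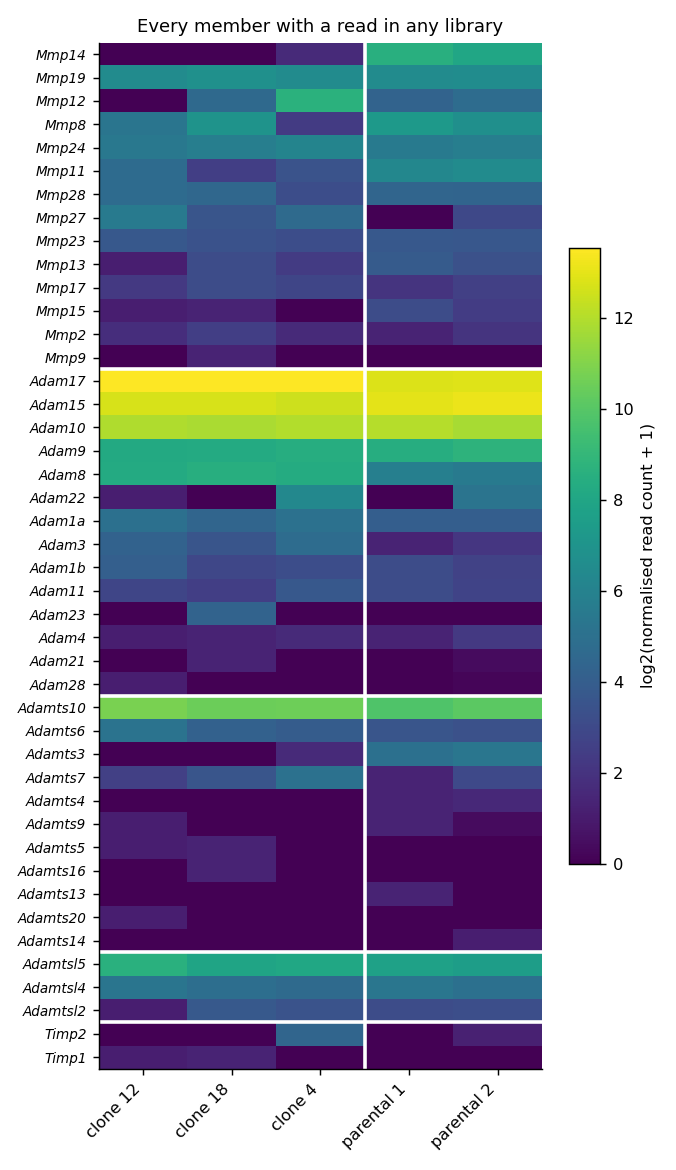
Log2(normalised read count + 1) (colour) of the 44 members with a read in any library (rows, by family from MMP at the top to TIMP) in each library (columns, 3 clones and 2 parental). Colours are not corrected for gene length and compare libraries within a row. Mmp14 and Adamts3 are dark in the clones and lighter in the parental libraries, and Adam8 shows the reverse.

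Genes that regulate these enzymes were taken from a list of 28 inhibitors, activators and escort proteins, of which 14 were tested, 3 were called higher, 0 lower and 11 not called. The list's median log2 fold change was 0.29, against 0.01 over all genes tested. Over all genes tested, 16.0% were called, 7.51% higher and 8.49% lower. No list was tested as a set, here or below. Serpinb2, an inhibitor of the plasminogen activators that start the cascade activating several MMPs, was at 40.6, 17.4 and 10.3 in the clones with no parental read. With 3 reads for the group as the floor it was at least 60.9-fold higher, a bound that drops to 5.45-fold when parental replicate 2 is left out. It was called higher with all libraries (adjusted p = 0.0124, limma) and fell below the minimum, untested, without clone 12.

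Tspan17, a tetraspanin of the group that escorts Adam10 to the cell surface, was at 165, 124 and 140 in the clones, while the parental libraries gave 12.4 and 47.8 (log2 fold change 2.48, SE 0.524, adjusted p = 0.0255, limma). This was not called without clone 12, 18 or 4 (adjusted p = 0.0927, 0.0740 and 0.101, limma), and its log2 fold change was 1.55 without parental replicate 1 and 3.41 without parental replicate 2. Tspan14 and Tspan5, from the same group, were not called (adjusted p = 0.429 and 0.902, limma). Furin, which removes the prodomain of many ADAMs and of Mmp14 and Mmp11, was at 4673, 4348 and 3820 in the clones, compared with 3135 and 3260 in the parental libraries.

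Furin rose 1.33-fold (log2 fold change 0.42, SE 0.105, adjusted p = 0.0345, limma), but was not called without clone 12, clone 18, parental replicate 1 or parental replicate 2 (adjusted p = 0.124, 0.0865, 0.12 and 0.106, limma). Rhbdf2, the iRhom that carries Adam17 to the surface in blood cells, was at 307, 309 and 427 in the clones, with parental values of 334 and 290 and was not called (adjusted p = 0.654, limma). Its partner Frmd8 was not called either (log2 fold change -0.43, SE 0.239, adjusted p = 0.265, limma). Thbs1, thrombospondin, was at 1.23, 108 and 6.15 in the clones, while the parental libraries gave 163 and 175. It was not called (adjusted p = 0.219, limma). Reck, a membrane-anchored inhibitor of MMPs, was below the minimum.

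Of 29 proteins shed by ADAMs, 14 were tested, 3 were called higher, 2 lower and 9 not called, with a median log2 fold change of 0.06. The share called over all genes tested was 16.0%. Cd44, the hyaluronan receptor, was at 11439, 11224 and 12448 in the clones, compared with 19086 and 21577 in the parental libraries, and fell by 0.80 on the log2 scale (SE 0.0851, adjusted p = 0.00135, limma). Icam1, an adhesion molecule of leukocytes, was at 84.9, 109 and 82.1 in the clones, with parental values of 29.5 and 32.2, a 2.90-fold rise (adjusted p = 0.00583, limma). The 2 receptors of tumour necrosis factor, both substrates of Adam17, were called in opposite directions.

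Tnfrsf1a was at 291, 483 and 217 in the clones, while the parental libraries gave 1234 and 1055, and fell by 1.86 on the log2 scale (adjusted p = 0.0141, limma). The call was lost without clone 12, parental replicate 1 or parental replicate 2 (adjusted p = 0.0617, 0.0520 and 0.0535, limma). Tnfrsf1b, named after its values were seen, was at 1230, 1366 and 1342 in the clones, compared with 945 and 551 in the parental libraries, a 1.82-fold rise (adjusted p = 0.0394, limma) that was not called without clone 12, 18 or 4 or without parental replicate 2 (adjusted p = 0.0998, 0.11, 0.12 and 0.0856, limma). Csf1, the macrophage growth factor, rose 2.65-fold (adjusted p = 0.0143, limma). It missed the threshold without clone 12 or parental replicate 2 (adjusted p = 0.0581 and 0.0649, limma), at log2 fold changes of 1.28 and 1.39 against 1.41 with all libraries. Notch1 and Notch2, substrates of Adam10, were not called (adjusted p = 0.187 and 0.256, limma), nor was Kit (adjusted p = 0.183, limma).

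Of 24 matrix proteins cut by these enzymes, 8 were tested, 1 was called higher, 1 lower and 6 not called. Their median log2 fold change was -0.49, and 16.0% of all genes tested were called. Lama5, a laminin chain, was at 705, 610 and 630 in the clones, with parental values of 235 and 233, a 2.76-fold rise (log2 fold change 1.47, SE 0.139, adjusted p = 0.000928, limma). Hspg2, the basement membrane proteoglycan perlecan, was at 7.39, 0 and 0 in the clones, while the parental libraries gave 63.7 and 39.1 (log2 fold change -4.65, SE 1.05, adjusted p = 0.0230, limma). It was not called without clone 18 or 4 or either parental library (adjusted p = 0.0646, 0.0655, 0.168 and 0.121, limma), and its log2 fold change was -5.67 without clone 12. Fibronectin (Fn1) and periostin (Postn) were not called (adjusted p = 0.275 and 0.0837, limma), at log2 fold changes of -2.63 and -4.91. Fn1 was at 0, 28.5 and 12.3 in the clones and 51.3 and 38.2 in the parental libraries. Postn was at 0, 1.59 and 30.8 in the clones and 112 and 151 in the parental libraries. Neither gene overlapped between groups, as held for 50.2% of all genes tested.

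Of 12 other zinc metalloproteases, 2 were tested, and 8 had no read. Ece1, a membrane protease that makes endothelin, was at 177, 170 and 115 in the clones, compared with 18.6 and 23.1 in the parental libraries. It rose 7.0-fold (log2 fold change 2.81, SE 0.263, adjusted p = 0.000913, limma), while its relative Ece2 was not called (adjusted p = 0.535, limma).

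**Figure D5:**
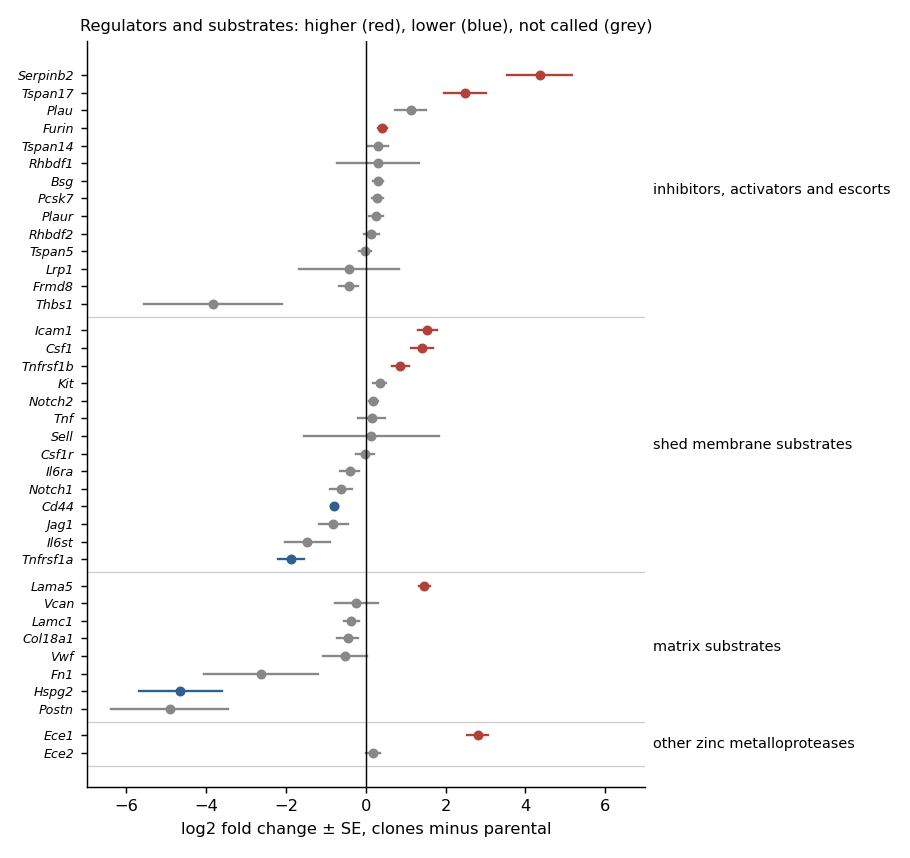
Log2 fold change (horizontal axis, clones minus parental) with its SE for the 38 tested genes of the regulator, shed substrate, matrix substrate and other metalloprotease lists. Serpinb2 at 4.36 and Ece1 at 2.81 lie farthest to the right among called genes, and Hspg2 at -4.65 farthest to the left.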

How the data were processed

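The 5 mouse RNA libraries were made with NEBNext Ultra II (labels' protocols). Named tools are STAR 2.6.1, RSEM and DESeq2, and named builds mm9 and hg19, per the submitters' processing notes, which do not say what each was used for; the counting step, annotation and strand setting are not stated. The deposited signal is a read count that the authors divided by a size factor per library, as file names and values show: 100% of values above 0 were whole multiples of the library's smallest value, within 0.01. Of 37991 genes, 823 had no symbol. The 8 human libraries, from another organism and library kit, were not used here, and their tables carry no gene symbols.

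Clones and parental libraries were compared with limma 3.58.1 in R 4.3.3 (trend, robust moderation) on log2(value + 1), which understates changes of low genes, for the 13132 genes with a mean of at least 10, and p-values were adjusted over all of them. edgeR 4.0.16 and DESeq2 1.42.0 on recovered reads, other pseudocounts, minimums and scalings, and each library left out were alternatives. A fit without 1 parental library assumes that the other varies as the clones do. Counts of same-group libraries varied beyond sampling noise (chi-square per degree of freedom 6.11 to 11.4 between clones, 25.5 between parental libraries), so each counted as 1 replicate. Counting intervals are exact (Clopper-Pearson, 95%).

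All members with a mean of at least 10 are named, with those below it that reach 10 in any library, the TIMPs, and up to 4 called genes with the smallest p of each list. Other list genes and low members were named after their values were seen. Members and lists were chosen with earlier results of these data known. Marker lists of megakaryocyte, erythroid, B, T and NK, dendritic and endothelial cells were summed as well, at 2032 to 3143, 4248 to 4874, 2338 to 3083, 65.6 to 170, 3822 to 4638 and 7620 to 9336 in the clones and 384 to 437, 5033 to 5885, 5039 to 5269, 129 to 131, 5816 to 5825 and 3541 to 3717 in the parental libraries.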

Additional observations from a re-analysis of the deposited data

How the results depend on the processing

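No paired analysis was possible because the clones are numbered 12, 18 and 4 and the parental libraries 1 and 2, so the groups share no replicate numbers. Of the 8 called members, Adam8, Adam17 and Mmp14 kept their call in all 14 alternatives, the other 5 lost it in at least 1, and none of the 8 changed direction. All 8 were called by edgeR and by DESeq2 on recovered reads. The 4 members called higher became 2 with no minimum and 2 to 4 when 1 library was left out. The 4 called lower became 2 with a minimum mean of 50, which removes Adamts3 and Mmp11 from the test, 2 without trend and robust moderation, and 1 to 4 when 1 library was left out, with 1 without parental replicate 2. Over all genes, 2101 were called, 1271 without trend and robust moderation, and 990 to 2115 when 1 library was left out. The pathway lists held 11 called genes, 7 without trend and robust moderation and 5 to 10 when 1 library was left out. Of the members, 23 reached a mean of 10, 12 a mean of 50 and 33 a mean of 1. Apart from changes that follow from fewer genes or libraries tested, the cause was not tested. With no minimum, Adam15, Adamts10, Mmp11 and Adam3 missed the threshold (adjusted p = 0.0519, 0.0628, 0.0672 and 0.0511, limma), and so did Adam15, Adamts10 and Mmp11 without trend and robust moderation (0.0941, 0.0758 and 0.0608).

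The sign of the log2 fold change turned in members that were not called. When 1 library was left out it ran from -0.51 to 0.26 for Mmp28 (above 0 without clone 4), -0.0104 to 0.121 for Mmp19 (below 0 without clone 18), -0.0819 to 0.26 for Mmp24 (below 0 without clone 4 or parental replicate 1), -0.12 to 0.10 for Adam10 (above 0 without clone 18 or parental replicate 1), -2.71 to 2.499 for Adam22 (above 0 without clone 12, clone 18 or parental replicate 2, and not tested without clone 4) and -2.23 to 2.10 for Mmp12 (above 0 without clone 12 or parental replicate 2). Adam10 was at 0.001005 with equal library totals, Adam22 at 0.0318 with edgeR and 0.58 with DESeq2, and Mmp12 at 0.51 with a pseudocount of 5, 2.44 with edgeR and 2.65 with DESeq2. At the depth of the clones 1 read is worth 1.23 to 2.05, so members below about that level cannot be compared between groups.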
